A study of Homo sapiens with 8 samples.

Results

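The comparison set HCT116 against DLD1 and HCT8, all established human colorectal cancer (CRC) cell lines, and asked which genes separated the lines in the same way with and without hypoxia. It used 6 of the 8 libraries of the series: 2 of HCT116, 2 of DLD1 and 2 of HCT8, in each case 1 untreated and 1 hypoxia-treated. Members were all genes that reached 10 counts in 2 or more of these 6 libraries, 21045 of the 54261 in the table. Total RNA depleted of ribosomal RNA was sequenced from cells at passage 5. The study's methods give DMEM with fetal bovine serum for all cells, controls included, but do not list HCT116 among them. The untreated libraries of NCM460 and HIEC6, which the labels call normal intestinal epithelial lines, were set beside the result as values only. The oxygen level and duration of the hypoxia treatment are not given in the sources used here. Each line has 1 library per treatment, and nothing says how many cultures it came from, so the comparison is of 1 line with 2 other lines, and the p-values measure the spread among these 6 libraries.

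HCT116, DLD1 and HCT8 are widely used models of CRC and differ in their known driver lesions. HCT116 is known for a stabilising mutation in the beta-catenin gene CTNNB1. DLD1 and HCT8 are known for truncated APC and for MSH6 mutations, and they have been reported to come from the same patient. If so, their libraries are not independent of each other, and the p-values below do not allow for this. The colonic epithelium is held in its identity by transcription factors such as CDX2 and HNF4A, and its crypt base by Wnt signalling, through which beta-catenin turns on targets such as AXIN2 and LGR5. BNIP3, the gene given as the marker of the comparison, encodes an outer mitochondrial membrane protein that tethers mitochondria to autophagosomes (mitophagy) and is a well known target of the hypoxia-inducible factor HIF-1.

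Values below are CPM, counts scaled to a common library size, with TMM factors (trimmed mean of M-values). Total counts lay between 45519306 and 57374239 per library, and the detection floor of 3 counts was worth 0.0503 to 0.0703 CPM, counting error alone considered. The hypoxia library of HCT116 stood apart, with a TMM factor of 0.771 against 0.988 to 1.13 in the others, and with 13.1% of its counts in its 10 most abundant genes against 6.03% to 8.86%. The identifiers in the sample descriptions differ between the untreated and the hypoxia libraries, so what they mark and the treatment cannot be told apart, and the treatment term of the fit takes up both. The hypoxia libraries of HCT116 and DLD1, but not that of HCT8, carry a further identifier besides the one the hypoxia libraries share. Log2 CPM over the genes tested correlated at 0.952 between the HCT116 libraries, at 0.888 to 0.919 between DLD1 and HCT8 libraries, and at 0.798 to 0.844 between HCT116 and the other lines. These correlations are across genes, which are not independent replicates. The epithelial markers EPCAM, KRT8, KRT18 and KRT19 were present in every library, but CDX2 was low and VIL1, CDH17 and LGALS4 were at or near 0 in HCT116.

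BNIP3 (ENSG00000176171, chromosome 10, minus strand) was present in HCT116 and at or near 0 in the other lines. HCT116 had 969 BNIP3 counts untreated and 10624 under hypoxia, or 18.8 and 249 CPM. DLD1 had 0 and 5 counts, and HCT8 had 0 and 1. In RNA from bulk cultures, fewer expressing cells and less RNA per cell cannot be told apart. The groups did not overlap, and the HCT116 libraries lay 4528-fold [95% counting interval 2079.8 to 12342] above the others in pooled scaled counts. BNIP3 passed the count filter through the HCT116 libraries alone, so the lack of overlap is a description. The fitted log2 difference was 12.19 ± 0.57 SE (adjusted p = 0.00159, edgeR's quasi-likelihood fit after Benjamini-Hochberg correction, as for each such p below unless another tool is named). Without either HCT116 library BNIP3 no longer passed the threshold, with adjusted p over all single-library omissions between 0.00317 and 0.142 and a log2 difference between 11.67 and 13.36.

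The bases just before the BNIP3 start are shown because HIF acts on this gene through its promoter and 2 of the 3 hypoxia-treated lines had BNIP3 at or near 0. They come from RefSeq on GRCh38.p14, at chr10:131981924-131982173 on the minus strand, written 5′ to 3′ and ending at the base before the start site. Capitals mark CACGTG, which holds ACGTG, a form of the core that HIF binds, on both strands in overlapping letters.
BNIP3 promoter: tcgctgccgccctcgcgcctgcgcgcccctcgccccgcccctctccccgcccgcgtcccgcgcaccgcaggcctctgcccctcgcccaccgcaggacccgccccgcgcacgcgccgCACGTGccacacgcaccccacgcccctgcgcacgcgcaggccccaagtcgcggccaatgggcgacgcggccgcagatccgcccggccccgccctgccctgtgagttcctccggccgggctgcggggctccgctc

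The 250 bases held 41 CG dinucleotides and were 81.6% G or C. The capitals lie at positions -134 to -129 from the start, and ACGTG, searched on both strands, was found in 6501 of 35116 RefSeq promoter windows of the same length (18.5%). Only this form of the core was searched for, so any other form is left in lower case and outside the 18.5%. A match is a description of the letters and no sign of a bound site. DNA methylation was not measured here.

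Of 12 mitophagy genes tested, BNIP3 was called higher and the other 11 were not called. Of all genes tested, 4.87% were called higher and 3.49% lower. BNIP3L, the closest relative of BNIP3, was at 51.3 CPM untreated and 517 under hypoxia in HCT116, 69.9 and 330.3 in DLD1, and 63.4 and 582 in HCT8 (log2 difference -0.09 ± 0.30 SE, adjusted p = 0.875). HCT116 thus lay lowest untreated and between the other lines under hypoxia, and BNIP3L was higher in the hypoxia library of each line. FKBP8, another mitochondrial receptor, was at 284 CPM untreated and 484 under hypoxia in HCT116, 193 and 252 in DLD1, and 240.3 and 328 in HCT8 (log2 difference 0.57 ± 0.23 SE, adjusted p = 0.182). The median log2 difference over the 12 genes was 0.37.

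**Figure D1:**
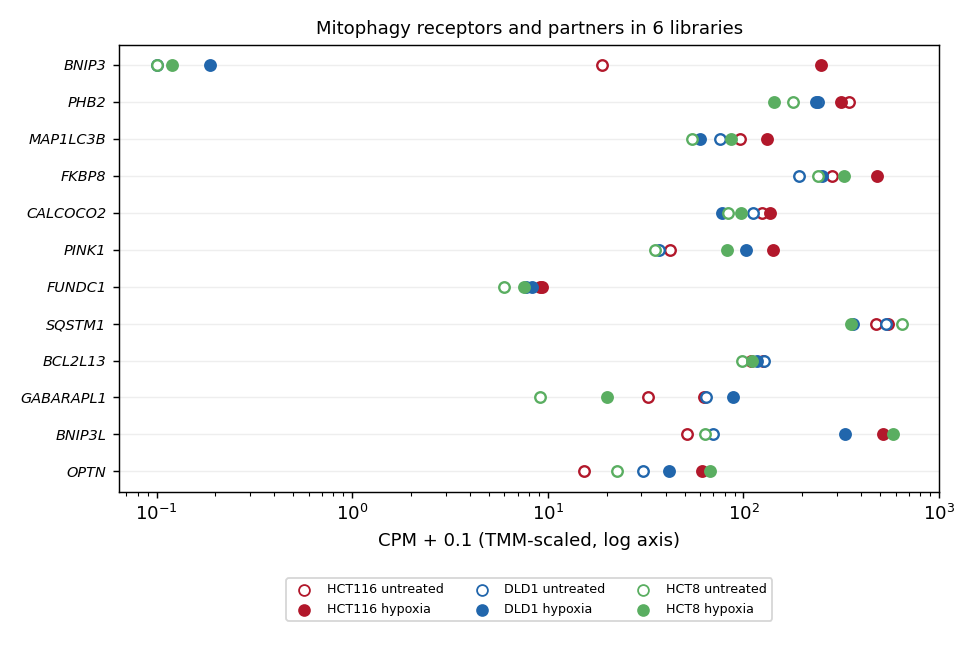
CPM plus 0.1 on a log axis for the mitophagy genes, 1 point per library, with colour for the line and symbol for the treatment. BNIP3 alone has its HCT116 points (18.8 and 249 CPM) far to the right of DLD1 and HCT8 points that sit at or near 0, while BNIP3L points of the 3 lines lie together within each treatment.

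Over all genes tested, 1024 were higher in HCT116 than in DLD1 and HCT8 (4.87%) and 734 were lower (3.49%) at an adjusted p under 0.05. DESeq2 called 2406 higher and 2616 lower, so that the share of calls that were higher fell from 58.2% to 47.9%. With either HCT116 library left out, or within the untreated or the hypoxia libraries alone, 0 genes were called by edgeR, while 2312 untreated and 2898 under hypoxia had an unadjusted p under 0.05. Without a DLD1 or HCT8 library 987 to 1124 genes were called. The median log2 difference over all genes was -0.09. The gene groups below are set against this median and against the shares of 4.87% higher and 3.49% lower. A few calls in a short list describe those genes and are no result about the list. The lists and their members were chosen with earlier results of these data known, so their counts and medians are a description.

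The direction held in both treatments for the called genes. All 1024 genes called higher lay above both other lines untreated and again under hypoxia, a pattern found in 25.9% of all genes tested, and all 734 called lower lay below both lines in both treatments, against 26.2% of all genes tested. Since the same values gave the calls, this is a description. The interaction of line and treatment was called for 0 genes by edgeR's quasi-likelihood test (0%), with 480 genes at an unadjusted p under 0.05, and DESeq2 called 7. The interaction fit had 1 HCT116 library per treatment and 2 residual degrees of freedom. Its 0 calls in edgeR therefore do not show that the differences were alike in both treatments. In the fit with each line as its own level, 16.9% of genes were called higher and 15.1% lower than in DLD1, and 13.9% higher and 13.1% lower than in HCT8. These pairwise fits share the HCT116 libraries.

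**Figure D2:**
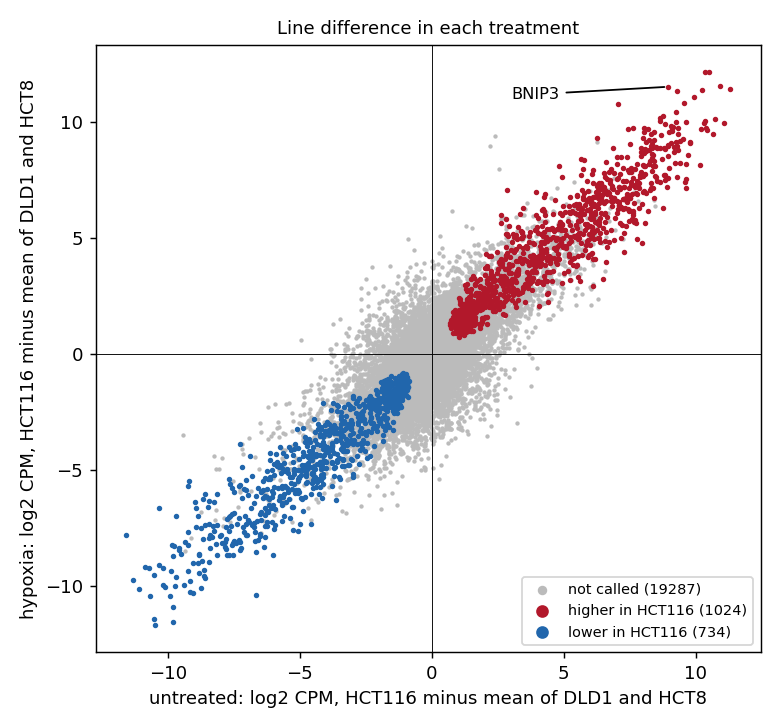
Each point is 1 gene, with the log2 CPM of HCT116 minus the mean of DLD1 and HCT8 in untreated libraries on the horizontal axis and in hypoxia libraries on the vertical axis. Coloured points are the 1024 genes called higher and the 734 called lower, and they lie in the quadrants where both differences have the same sign.

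Transcription factors that define intestinal cells were lower in HCT116 or not called. Of 17 lineage factors tested, 0 were higher and 6 were lower, with a median log2 difference of -2.38. FOXA1, a pioneer factor of endodermal organs, was at 1.57 CPM untreated and 1.85 under hypoxia in HCT116, 179 and 240.3 in DLD1, and 189 and 149 in HCT8. Every HCT116 value lay far under the lowest value of the other lines (log2 difference -6.79 ± 0.37 SE, adjusted p = 0.00240). CDX2, the homeobox factor that specifies hindgut epithelium, was at 19.6 CPM untreated and 12.5 under hypoxia in HCT116, 159 and 236 in DLD1, and 261 and 357 in HCT8 (log2 difference -3.95 ± 0.47 SE, adjusted p = 0.00964). It was detected in HCT116, but the groups did not overlap. GATA6, a zinc finger factor of endoderm, was at 8.99 CPM untreated and 9.58 under hypoxia in HCT116, 84.8 and 107 in DLD1, and 112 and 100.3 in HCT8 (log2 difference -3.44 ± 0.25 SE, adjusted p = 0.00348). HNF4A, a nuclear receptor of enterocytes, followed the same order, at 10.3 and 11.8 CPM in HCT116 against 41.97 and 51.5 CPM in DLD1 and 66.8 and 69.01 CPM in HCT8 (log2 difference -2.38 ± 0.32 SE, adjusted p = 0.0129). ISX, the intestine-specific homeobox gene, had 0 counts in both HCT116 libraries against 4.62 and 8.25 CPM in DLD1 and 37.8 and 42.8 CPM in HCT8, and was at least 734-fold lower in HCT116 (adjusted p = 0.0403).

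Other lineage factors did not pass. CDX1, the paralog of CDX2, had 0 counts in HCT116, 0 and 2 counts in DLD1, and 22.4 and 35.3 CPM in HCT8 (adjusted p = 0.249). In the pairwise fits HCT116 was called lower than HCT8 for CDX1 (adjusted p = 4.66e-05) but not lower than DLD1 (adjusted p = 0.250). SOX9, the factor of crypt progenitors, was at 387 CPM untreated and 713 under hypoxia in HCT116, 452 and 424 in DLD1, and 242 and 294 in HCT8 (log2 difference 0.59 ± 0.36 SE, adjusted p = 0.340). KLF4, a factor of differentiating colonocytes, was at 44.6 CPM untreated and 360.3 under hypoxia in HCT116, 32.4 and 41.1 in DLD1, and 17.7 and 22.6 in HCT8 (log2 difference 2.38 ± 0.69 SE, adjusted p = 0.0936).

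Surface and secreted proteins of the intestinal lining followed. Of 21 tested, 0 were higher and 7 were lower in HCT116, with a median log2 difference of -5.25, or -4.88 with genes at 0 set to their bound. AGR2, a protein disulfide isomerase that mucus-secreting cells need, had 4 and 1 counts in HCT116 and 212 and 245 CPM in DLD1 and 129 and 161 CPM in HCT8. The groups were 3518-fold [95% counting interval 1507 to 10835] apart (adjusted p = 0.00252). CDH17, the liver-intestine cadherin, had 4 and 6 counts in HCT116 and 139.7 and 207 CPM in DLD1 and 118 and 167 CPM in HCT8 (1487-fold [95% counting interval 809 to 3101] lower in HCT116, adjusted p = 0.00103). TSPAN8, a tetraspanin of digestive epithelium, had 2 counts in each HCT116 library and 128 and 134 CPM in DLD1 and 61.5 and 52.9 CPM in HCT8 (adjusted p = 0.00372). The trefoil peptides TFF1 and TFF3, which are secreted with mucins, had 0 counts in HCT116. TFF1 was at 5.25 and 6.46 CPM in DLD1 and 3.41 and 5.85 CPM in HCT8 and was at least 164-fold lower in HCT116 (adjusted p = 0.00709). TFF3 was at 9.64 and 18.2 CPM in DLD1 and 1.19 and 4.20 CPM in HCT8 and was at least 262-fold lower in HCT116 (adjusted p = 0.0447). MUC13, a membrane mucin, was at 0.485 CPM untreated and 0.914 under hypoxia in HCT116, 14.3 and 27.5 in DLD1, and 13.5 and 27.7 in HCT8 (log2 difference -4.88 ± 0.37 SE, adjusted p = 0.00348). EPS8L3, a relative of the actin regulator EPS8, was at 0.465 CPM untreated and 0.797 under hypoxia in HCT116, 26.1 and 40.1 in DLD1, and 42.8 and 61.1 in HCT8 (log2 difference -6.09 ± 0.46 SE, adjusted p = 0.00348). Other members lay on the opposite side without passing. The peptidase DPP4 was at 10.4 CPM untreated and 33.9 under hypoxia in HCT116, 5.27 and 8.51 in DLD1, and 7.15 and 15.7 in HCT8 (log2 difference 1.13 ± 0.40 SE, adjusted p = 0.140). CEACAM1 and the peptidase ANPEP also lay above the other lines in each treatment (adjusted p = 0.456 and 0.176).

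The brush border gene VIL1 (villin, an actin bundler) was near 0 in HCT116 but did not pass in the comparison with both lines together. It was at 0.0388 CPM untreated and 0.305 under hypoxia in HCT116, 7.81 and 18.3 in DLD1, and 229 and 378 in HCT8 (adjusted p = 0.0708). Against DLD1 alone the log2 difference was -6.31 ± 0.43 SE, adjusted p = 2.62e-05, and against HCT8 alone -10.94 ± 0.47 SE, adjusted p = 8.01e-06.

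**Figure D3:**
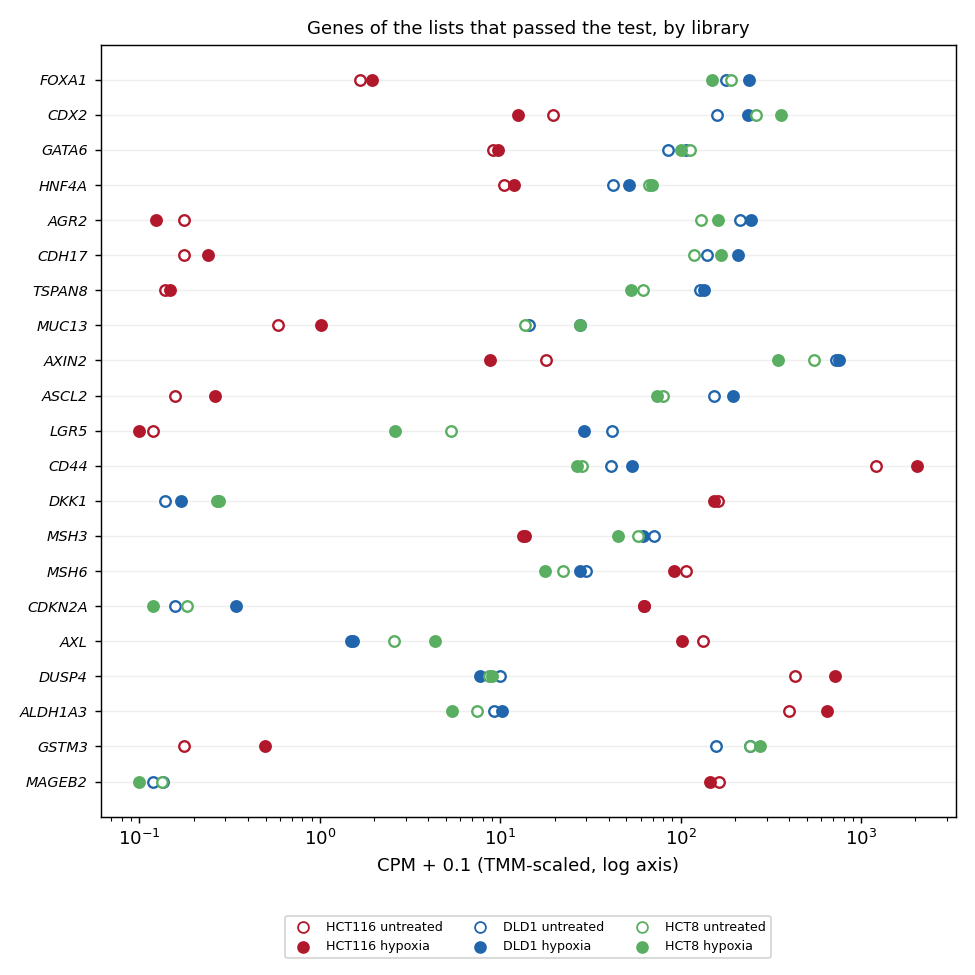
CPM plus 0.1 on a log axis for called genes of the gene lists, 1 point per library, with colour for the line and symbol for the treatment, and 0 drawn at 0.1. HCT116 points lie apart from the DLD1 and HCT8 points in both treatments for each gene shown.

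Targets and regulators of the Wnt pathway split by gene. Of 27 tested, 9 were lower and 3 higher in HCT116, and the median log2 difference was -1.43. AXIN2, a scaffold of the beta-catenin destruction complex that is itself a target, was at 17.9 CPM untreated and 8.72 under hypoxia in HCT116, 729 and 758 in DLD1, and 548 and 346 in HCT8. The groups did not overlap (log2 difference -5.55 ± 0.54 SE, adjusted p = 0.00546). ZNRF3, a ligase that removes Wnt receptors, was lower by less, at 37.9 and 48.4 CPM in HCT116 against 102 and 90.7 CPM in DLD1 and 149 and 126 CPM in HCT8 (log2 difference -1.43 ± 0.30 SE, adjusted p = 0.0451; not called under upper-quartile scaling).
LGR5, ASCL2 and PROX1, genes of the crypt base and of Wnt signalling, were at or near 0 in HCT116. LGR5, the R-spondin receptor, had 1 and 0 counts in HCT116 and 41.3 and 29.1 CPM in DLD1 and 5.22 and 2.50 CPM in HCT8, a ratio of 1830.1-fold [95% counting interval 328 to 72301] (adjusted p = 0.0411). ASCL2, a stem cell transcription factor, had 3 and 7 counts in HCT116 and 153 and 195 CPM in DLD1 and 79.3 and 73.6 CPM in HCT8 (1186-fold [95% counting interval 645 to 2474] lower in HCT116, adjusted p = 0.00403). PROX1, a homeobox target of beta-catenin in CRC, had 0 counts in HCT116 against 9.01 and 8.48 CPM in DLD1 and 2.68 and 4.36 CPM in HCT8, and was at least 191-fold lower (adjusted p = 0.0178). TNFRSF19 (TROY), a receptor of crypt stem cells, was at 1.76 CPM untreated and 3.28 under hypoxia in HCT116, 35.3 and 54.1 in DLD1, and 26.9 and 47.7 in HCT8 (log2 difference -4.04 ± 0.31 SE, adjusted p = 0.00366). APCDD1, TDGF1 and BAMBI were the other lower members, with adjusted p of 0.0408, 0.0392 and 0.0179.
The 3 higher members were DKK1, CD44 and MYC. DKK1, a secreted Wnt inhibitor, was at 159.9 CPM untreated and 153 under hypoxia in HCT116, 0.0380 and 0.0695 in DLD1, and 0.168 and 0.176 in HCT8 (1384-fold [95% counting interval 937 to 2139] higher, adjusted p = 0.00241). CD44, the hyaluronan receptor, was at 1214 CPM untreated and 2031 under hypoxia in HCT116, 40.9 and 53.4 in DLD1, and 28.2 and 26.5 in HCT8 (log2 difference 5.41 ± 0.37 SE, adjusted p = 0.00329). MYC was at 419.7 CPM untreated and 570.3 under hypoxia in HCT116, 141 and 115 in DLD1, and 199.9 and 64.2 in HCT8 (log2 difference 2.04 ± 0.41 SE, adjusted p = 0.0403). For DKK1 and CD44 the lowest HCT116 value was far above the highest of the others, and for MYC the gap was narrower.

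Epithelial genes were mostly not called. Of 20 tested, 3 were lower and 1 was higher, with a median log2 difference of -0.45. CDH1 (E-cadherin) was at 128 CPM untreated and 285 under hypoxia in HCT116, 1043 and 1146 in DLD1, and 859 and 1292 in HCT8 (log2 difference -2.48 ± 0.30 SE, adjusted p = 0.0101). GRHL2 and ST14, an epithelial transcription factor and a membrane protease, were lower with adjusted p of 0.0239 and 0.0411. ESRP1, a splicing regulator of epithelial cells, went the other way, at 221 CPM untreated and 335 under hypoxia in HCT116, 35.8 and 30.6 in DLD1, and 29.9 and 35.6 in HCT8 (log2 difference 3.06 ± 0.23 SE, adjusted p = 0.00348). The keratin KRT19 was at 865 CPM untreated and 2693 under hypoxia in HCT116, 718 and 1900.1 in DLD1, and 689.8 and 2129.6 in HCT8 (log2 difference 0.36 ± 0.20 SE, adjusted p = 0.307), and was not called.

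Members of the mesenchymal list that passed the test were higher in HCT116. Of 21 tested, 6 were higher and 0 lower, with a median log2 difference of 1.81. AXL, a receptor tyrosine kinase, was at 132 CPM untreated and 102 under hypoxia in HCT116, 1.43 and 1.39 in DLD1, and 2.47 and 4.26 in HCT8 (log2 difference 5.65 ± 0.55 SE, adjusted p = 0.00546). ZEB1, a repressor of CDH1, was at 7.15 CPM untreated and 11.6 under hypoxia in HCT116, 1.01 and 1.29 in DLD1, and 1.19 and 1.10 in HCT8 (log2 difference 2.997 ± 0.40 SE, adjusted p = 0.0129). TWIST1 had 2.31 and 2.09 CPM in HCT116 and 3 counts in all in the other lines, a ratio of 162-fold [95% counting interval 54.8 to 794] (adjusted p = 0.0267). SNAI1 and SNAI2 passed narrowly, with adjusted p of 0.0481 and 0.0490, and SNAI1 was not called under upper-quartile scaling. VIM (vimentin) was at 6.28 CPM untreated and 26.8 under hypoxia in HCT116, 1.65 and 10.5 in DLD1, and 0.906 and 0.196 in HCT8 (log2 difference 2.31 ± 1.19 SE, adjusted p = 0.273). The matrix genes TGFBI and TNC went the other way, and these 2 members were called lower than DLD1 but not lower than the other lines together. TGFBI was at 0.0388 CPM untreated and 5.46 under hypoxia in HCT116, 172 and 203 in DLD1, and 15.9 and 18.8 in HCT8 (adjusted p = 0.163, and 0.00379 against DLD1 alone).

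Some genes of this list were high in the hypoxia libraries of HCT116 and DLD1, the libraries that carry the further identifier. FN1 (fibronectin) was at 14.4 CPM untreated and 120.2 under hypoxia in HCT116, 5.32 and 55.6 in DLD1, and 0.235 and 0.411 in HCT8. The fibroblast gene COL1A2 was at 0.950 CPM untreated and 16.96 under hypoxia in HCT116, 0.760 and 11.4 in DLD1, and 1.11 and 0.411 in HCT8. Of the other fibroblast markers, PDGFRB was highest in HCT8, at 3.24 and 7.53 CPM against 0.310 and 0.797 in HCT116. LUM, DCN and THY1 were low and reached at most 0.445, 0.492 and 0.330 CPM. Like COL1A2, each of these was higher in the hypoxia than in the untreated library of HCT116 and of DLD1. In the hypoxia library of HCT8, DCN and THY1 were at 0, while LUM was at 0.254 CPM against 0 untreated. The summed CPM of 13 markers of fibroblasts, immune and endothelial cells was 8.04 and 48.2 in HCT116, 7.55 and 28.6 in DLD1, and 7.72 and 11.5 in HCT8. In the hypoxia libraries CD68 gave 26.8 CPM of the sum in HCT116, and VWF gave 12.7 CPM in DLD1. PTPRC and CD3E reached at most 0.104 CPM. CD68, a lysosomal protein of macrophages that other cells also make, was the only 1 of 8 tested markers called (log2 difference 3.36 ± 0.62 SE, adjusted p = 0.0326). The part of other cells in these results was not tested. Without the hypoxia libraries of HCT116 and DLD1, an alternative chosen after seeing the data, the mesenchymal median was 1.45 and 0 members were called.

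Because the extraction label names prefrontal cortex, 13 neuron and glia markers were also read, of which 4 were tested and 1 was called. Their summed CPM was 213 and 389 in HCT116, 78.1 and 78.3 in DLD1, and 72.7 and 70.2 in HCT8. SYT1, a synaptic vesicle protein, was at 129.7 CPM untreated and 207 under hypoxia in HCT116, 0.0760 and 0.0174 in DLD1, and 0.0503 and 0 in HCT8 (4547-fold [95% counting interval 2307 to 10534] higher in HCT116, adjusted p = 0.00253). The 11 markers other than SYT1 and MBP summed to 8.53 and 29.5 CPM in HCT116, 8.86 and 9.60 in DLD1, and 5.33 and 6.34 in HCT8. NEUROD2, GAD2 and MOG were at 0 in all 6 libraries, and GFAP and AQP4 were at 0 in the hypoxia library of HCT116.

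**Figure D4:**
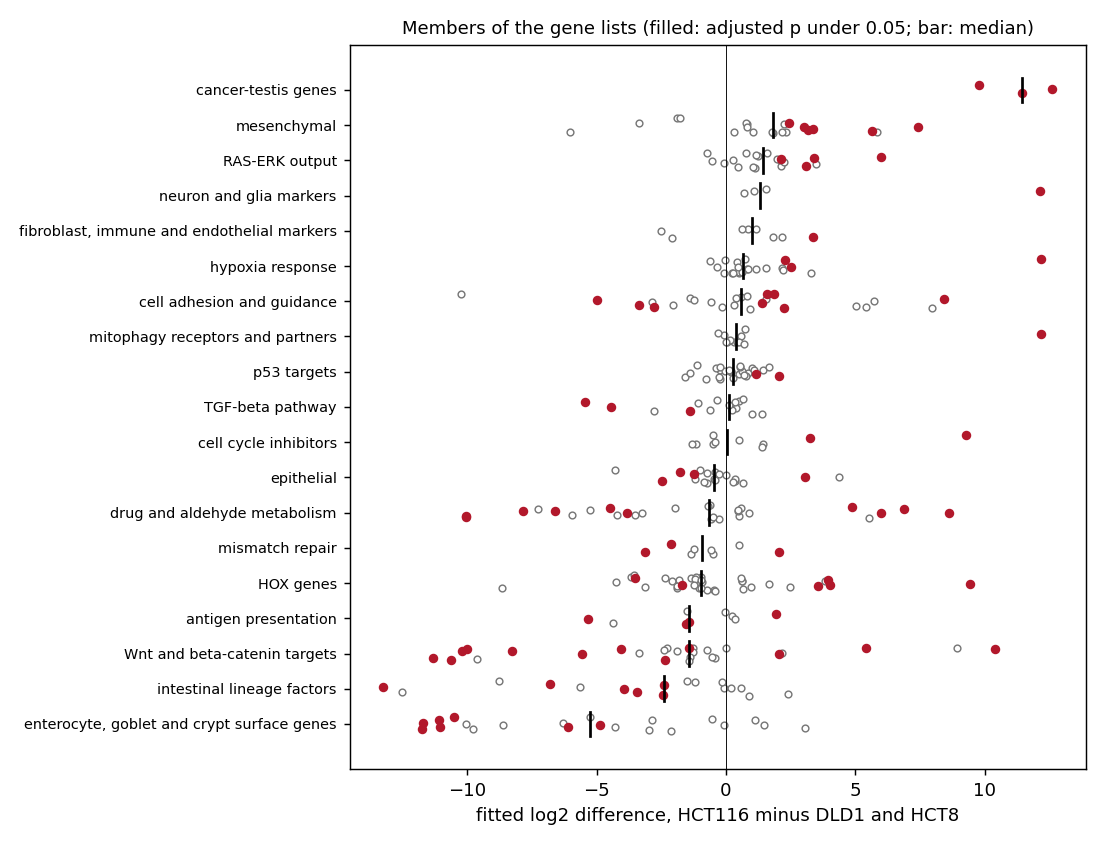
Fitted log2 difference of each tested member of the gene lists, HCT116 minus DLD1 and HCT8, with filled points for members at an adjusted p under 0.05 and a bar at the list's median. Lineage factors and surface genes lie mostly left of 0 (medians -2.38 and -5.25), and the mesenchymal and RAS-ERK lists mostly right of it (1.81 and 1.42).

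Feedback genes of RAS-ERK signalling were higher in HCT116 or not called. Of 20 tested, 4 were higher and 0 lower, with a median log2 difference of 1.42. DUSP4, a phosphatase that inactivates ERK, was at 428 CPM untreated and 715 under hypoxia in HCT116, 9.92 and 7.64 in DLD1, and 8.57 and 8.86 in HCT8 (log2 difference 6.01 ± 0.29 SE, adjusted p = 0.00173). SPRY4, a feedback inhibitor of receptor signalling, was at 295 CPM untreated and 285 under hypoxia in HCT116, 31.2 and 30.8 in DLD1, and 30.5 and 18.9 in HCT8 (log2 difference 3.39 ± 0.25 SE, adjusted p = 0.00348). In both genes DLD1 and HCT8 lay close together and HCT116 far above. EPHA2, an ephrin receptor, and DUSP5, a nuclear ERK phosphatase, were higher with adjusted p of 0.0254 and 0.0441. The ligand EREG was at 729 CPM untreated and 1063 under hypoxia in HCT116, 663 and 498 in DLD1, and 27.6 and 13.6 in HCT8 (log2 difference 1.59 ± 1.48 SE, adjusted p = 0.526). HCT116 and DLD1 both had it at high levels, and the log2 difference was 0.67 ± 0.34 SE, adjusted p = 0.171 against DLD1 and 5.52 ± 0.42 SE, adjusted p = 5.36e-05 against HCT8.

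MSH3, a mismatch repair protein that recognises larger loops, was lower in HCT116, at 13.3 CPM untreated and 13.5 under hypoxia in HCT116, 70.8 and 61.4 in DLD1, and 57.8 and 44.9 in HCT8 (log2 difference -2.12 ± 0.27 SE, adjusted p = 0.0118). MSH6, which recognises single mismatches, was higher, at 108 CPM untreated and 92.3 under hypoxia in HCT116, 29.6 and 27.4 in DLD1, and 22.2 and 17.5 in HCT8 (log2 difference 2.05 ± 0.26 SE, adjusted p = 0.0112). For both genes no HCT116 library overlapped the others. PMS2 was not called (adjusted p = 0.383).

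Of 27 targets of the tumour suppressor p53 tested, 2 were higher in HCT116 and 0 lower, against 4.87% and 3.49% of all genes tested. The median log2 difference was 0.29. The pairwise fits called 10 higher and 2 lower against DLD1, where 16.9% and 15.1% of all genes were called. Against HCT8 they called 4 higher and 2 lower, where the shares of all genes were 13.9% and 13.1%. The study's methods list DLD1 as p53-mutant and HCT8 as p53 wild type and give no status for HCT116. CDKN1A (p21), a cell cycle inhibitor, was at 239.9 CPM untreated and 188 under hypoxia in HCT116, 20.9 and 26.2 in DLD1, and 102 and 191 in HCT8. Its log2 difference was 3.22 ± 0.32 SE, adjusted p = 0.000207 against DLD1 and 0.61 ± 0.30 SE, adjusted p = 0.173 against HCT8. PHLDA3, an inhibitor of AKT, was at 20.7 CPM untreated and 15.2 under hypoxia in HCT116, 0.874 and 0.799 in DLD1, and 25.7 and 18.8 in HCT8. HCT116 and HCT8 overlapped for PHLDA3, and DLD1 was low. RRM2B, a ribonucleotide reductase subunit, was called against both lines together, at 76.6 CPM untreated and 86.5 under hypoxia in HCT116, 29.9 and 35.3 in DLD1, and 35.5 and 46.5 in HCT8 (log2 difference 1.16 ± 0.22 SE, adjusted p = 0.0339). PLK3, a stress kinase, was the other call (log2 difference 2.03 ± 0.38 SE, adjusted p = 0.0339).

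Among cell cycle inhibitors, 2 of 10 were higher and 0 lower, against 4.87% and 3.49% of all genes tested. The median log2 difference was 0.04, or -0.056 without the hypoxia libraries of HCT116 and DLD1. CDKN2A, which encodes p16 and ARF, was at 62.2 CPM untreated and 62.2 under hypoxia in HCT116, 0.0570 and 0.243 in DLD1, and 0.0839 and 0.0196 in HCT8. It was 597-fold [95% counting interval 398 to 943] higher in HCT116 (adjusted p = 0.00436). Its neighbour CDKN2B was at 12.1 CPM untreated and 14.6 under hypoxia in HCT116, 1.29 and 3.09 in DLD1, and 0.520 and 1.45 in HCT8 (log2 difference 3.24 ± 0.59 SE, adjusted p = 0.0315).

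Genes of the hypoxia response were compared between lines with the treatment as a term. The median log2 difference over the 22 tested was 0.66, or 0.12 without the hypoxia libraries of HCT116 and DLD1. Of the 22, 3 were higher in HCT116 and 0 lower, against 4.87% and 3.49% of all genes tested. Besides BNIP3 these were NDRG1, a stress-responsive differentiation gene, and BHLHE40, a transcriptional repressor. NDRG1 was at 152 CPM untreated and 5225 under hypoxia in HCT116, 29.7 and 308 in DLD1, and 43.4 and 1046 in HCT8 (log2 difference 2.52 ± 0.52 SE, adjusted p = 0.0415). BHLHE40 was at 76.8 CPM untreated and 1093 under hypoxia in HCT116, 23.6 and 139 in DLD1, and 13.9 and 250.2 in HCT8 (log2 difference 2.27 ± 0.34 SE, adjusted p = 0.0180). Unlike BNIP3, both were present in DLD1 and HCT8 and higher in the hypoxia library of each line. CA9, the carbonic anhydrase often used as a hypoxia marker, was at 0.116 CPM untreated and 24.3 under hypoxia in HCT116, 0.0190 and 4.20 in DLD1, and 0.0671 and 3.48 in HCT8 (log2 difference 2.17 ± 0.57 SE, adjusted p = 0.0765).

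Antigen presentation genes could be read only in part. Of 16 listed, 9 passed the count filter. B2M, the light chain of HLA class I, was at 61.3 CPM untreated and 84.5 under hypoxia in HCT116, 18.1 and 16 in DLD1, and 14.9 and 26.05 in HCT8 (log2 difference 1.95 ± 0.27 SE, adjusted p = 0.0142). ERAP2, a peptidase that trims peptides for HLA, was at 1.14 CPM untreated and 1.69 under hypoxia in HCT116, 74.7 and 63.4 in DLD1, and 49.3 and 41.5 in HCT8 (log2 difference -5.34 ± 0.46 SE, adjusted p = 0.00403), and ERAP1 was lower with an adjusted p of 0.0329. TAP1, PSMB8 and PSMB9 were listed at 0 counts in all 6 libraries, and TAP2, TAPBP and HLA-E reached at most 1, 2 and 18 counts, so nothing is drawn from these genes. HLA genes share sequence, and how reads with several matches were counted is not given in the sources used here, so the HLA values are uncertain.

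In the TGF-beta pathway 3 of 15 tested genes were lower and 0 higher, with a median log2 difference of 0.12, or -0.068 without the hypoxia libraries of HCT116 and DLD1. These were the ligand gene INHBB, which encodes an activin subunit, the ligand TGFB2 and the receptor ACVR2A. INHBB was at 0.349 CPM untreated and 0.469 under hypoxia in HCT116, 26.3 and 22.4 in DLD1, and 11.4 and 11.05 in HCT8 (log2 difference -5.44 ± 0.69 SE, adjusted p = 0.0114). TGFB2 was at 1.05 CPM untreated and 0.820 under hypoxia in HCT116, 30.2 and 32.6 in DLD1, and 11.9 and 6.49 in HCT8 (log2 difference -4.45 ± 0.92 SE, adjusted p = 0.0428). ACVR2A was lower by less (log2 difference -1.40 ± 0.26 SE, adjusted p = 0.0342). TGFBR2, the receptor that binds TGF-beta, was at 78.1 CPM untreated and 76.96 under hypoxia in HCT116, 121 and 114 in DLD1, and 122 and 120.1 in HCT8 (log2 difference -0.62 ± 0.18 SE, adjusted p = 0.09996).

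Drug and aldehyde metabolism differed gene by gene. Of 28 tested, 4 were higher and 6 lower, with a median log2 difference of -0.65. CYP24A1, which inactivates vitamin D, was at 301 CPM untreated and 332 under hypoxia in HCT116, 1.22 and 1.22 in DLD1, and 0.671 and 0.137 in HCT8 (log2 difference 8.63 ± 0.82 SE, adjusted p = 0.00542). ALDH1A3, which makes retinoic acid, was at 399 CPM untreated and 644 under hypoxia in HCT116, 9.18 and 10.1 in DLD1, and 7.35 and 5.30 in HCT8 (log2 difference 6.01 ± 0.37 SE, adjusted p = 0.00274). The exporter ABCC2 was also higher, at 158 and 102 CPM in HCT116 against 1.41 and 1.72 CPM in DLD1 and 0.587 and 0.626 CPM in HCT8 (log2 difference 6.89 ± 0.58 SE, adjusted p = 0.00400), and so was the aldose reductase AKR1B1 (adjusted p = 0.0228).
In the other direction, GSTM3, a glutathione transferase, had 4 and 17 counts in HCT116 and 156 and 241 CPM in DLD1 and 242 and 274 CPM in HCT8 (1026-fold [95% counting interval 671 to 1658] lower in HCT116, adjusted p = 0.00325). GSTT1 of the same enzyme class had 0 and 1 counts in HCT116 and 10.4 and 11.98 CPM in DLD1 and 14.3 and 17.3 CPM in HCT8 (adjusted p = 0.00508). ALDH3A1, which oxidises aromatic aldehydes, was at 1.01 CPM untreated and 0.656 under hypoxia in HCT116, 57.9 and 61.9 in DLD1, and 107 and 92.7 in HCT8 (log2 difference -6.60 ± 0.50 SE, adjusted p = 0.00348). ABCB1, the P-glycoprotein drug pump, was at 2.91 CPM untreated and 2.81 under hypoxia in HCT116, 77.6 and 85.7 in DLD1, and 55.2 and 39.9 in HCT8 (log2 difference -4.50 ± 0.46 SE, adjusted p = 0.00640). Of the pumps, ABCC2 was thus higher and ABCB1 lower in HCT116, with no overlap of the groups for either. CBR1 and CYP1B1 were the remaining lower members (adjusted p = 0.0120 and 0.0485).

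Among adhesion and guidance genes, 5 of 25 were higher and 3 lower, with a median log2 difference of 0.56. PCDH7, a protocadherin, was at 147 CPM untreated and 242 under hypoxia in HCT116, 0.855 and 1.01 in DLD1, and 0.302 and 0.0391 in HCT8 (log2 difference 8.42 ± 1.05 SE, adjusted p = 0.0108). ITGB4, the hemidesmosome integrin, was at 802 CPM untreated and 1807 under hypoxia in HCT116, 261 and 291 in DLD1, and 206 and 293 in HCT8 (log2 difference 2.23 ± 0.26 SE, adjusted p = 0.00914). CDH3 (P-cadherin) was at 246 CPM untreated and 360.0 under hypoxia in HCT116, 77.1 and 87.5 in DLD1, and 77.2 and 86.9 in HCT8 (log2 difference 1.86 ± 0.19 SE, adjusted p = 0.00607). DLD1 and HCT8 were nearly equal for CDH3, and HCT116 lay above both. ITGA3 and ITGB1 were the other higher members, of which ITGB1 was not called under upper-quartile scaling. ITGB6, an integrin that activates latent TGF-beta, was lower, at 0.291 CPM untreated and 0.398 under hypoxia in HCT116, 7.32 and 13.5 in DLD1, and 10.4 and 13.7 in HCT8 (log2 difference -5.00 ± 0.48 SE, adjusted p = 0.00546), as were NRP2 and PLXNA2, subunits of semaphorin receptors (adjusted p = 0.0353 and 0.0341).

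Only 3 of 24 listed cancer-testis genes passed the count filter, which in these libraries a gene could pass through HCT116 alone, and all 3 were higher there. MAGEB2 was at 162 and 145 CPM in HCT116 with 5 counts in all in the other lines (6819.9-fold [95% counting interval 2922 to 21007] higher, adjusted p = 0.00123). PRAME had 1.76 and 2.44 CPM in HCT116 and 0 counts in the other lines (at least 152-fold higher, adjusted p = 0.0451). MAGEA3 was at 65.6 and 47.4 CPM in HCT116 with 1 count in each other library (adjusted p = 0.000776), and its value is uncertain because MAGEA6 is a near-identical copy.

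Homeobox genes of the HOX clusters, which mark position along the body axis, differed gene by gene. Of 36 tested, 4 were higher and 2 lower, with a median log2 difference of -0.96 that turned to 0.0096 with each line as its own level. The higher ones were HOXC13, HOXC9 and HOXC10 of the C cluster and HOXD8. HOXC13 was at 5.23 and 3.68 CPM in HCT116, with 1 count in all in the other lines, a ratio of 1001-fold [95% counting interval 179 to 39618] (adjusted p = 0.00572). HOXD8 was at 8.63 CPM untreated and 7.97 under hypoxia in HCT116, 0.456 and 0.538 in DLD1, and 0.705 and 1.15 in HCT8 (log2 difference 3.57 ± 0.51 SE, adjusted p = 0.0162). In the B cluster HOXB3 was lower, at 55.8 CPM untreated and 65.5 under hypoxia in HCT116, 739 and 699 in DLD1, and 593 and 705 in HCT8 (log2 difference -3.50 ± 0.25 SE, adjusted p = 0.00336), and so was HOXB9 (log2 difference -1.68 ± 0.34 SE, adjusted p = 0.0417). HOXA13 was at 9.67 CPM untreated and 19.4 under hypoxia in HCT116, 133 and 152 in DLD1, and 0.235 and 0.704 in HCT8, so that HCT116 lay between DLD1 and HCT8.

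Among protein-coding genes with a mean log2 CPM above 1 over the 6 libraries, the 12 leading genes higher in HCT116 included the receptors NTSR1 and OSMR. That mean is low for genes near 0 in DLD1 and HCT8. The cut therefore left out BNIP3 (log2 difference 12.19), MAGEB2, SYT1, STC2, WNT16 and DKK1, each of which differed by more than OSMR. NTSR1, the neurotensin receptor, was at 470.3 CPM untreated and 199 under hypoxia in HCT116, 0.190 and 0.122 in DLD1, and 0.302 and 0.156 in HCT8 (log2 difference 10.69 ± 0.32 SE, adjusted p = 0.000776). OSMR, the oncostatin M receptor, was at 105 CPM untreated and 242 under hypoxia in HCT116, 0.114 and 0.486 in DLD1, and 0.218 and 0.0978 in HCT8 (log2 difference 9.48 ± 0.64 SE, adjusted p = 0.00325). MSN (moesin), which links actin to the membrane, was at 398 CPM untreated and 605 under hypoxia in HCT116, 0.456 and 2.12 in DLD1, and 0.654 and 0.469 in HCT8 (log2 difference 9.17 ± 0.66 SE, adjusted p = 0.00348). In these genes the other lines did not exceed 2.12 CPM. ELOVL5, an elongase of polyunsaturated fatty acids, was at 137 and 123 CPM in HCT116 and at most 0.450 CPM elsewhere (log2 difference 8.91 ± 0.41 SE, adjusted p = 0.00159).
Matrix genes among the 12 were COL12A1, COL6A2, VCAN (versican) and LOXL2, a collagen crosslinking oxidase. COL12A1 was at 159.6 CPM untreated and 218 under hypoxia in HCT116, 0.304 and 1.20 in DLD1, and 0.419 and 0.137 in HCT8 (log2 difference 8.55 ± 0.80 SE, adjusted p = 0.00510). LOXL2 was at 42.4 CPM untreated and 681 under hypoxia in HCT116, 0.475 and 1.06 in DLD1, and 0.570 and 1.04 in HCT8 (log2 difference 8.11 ± 0.75 SE, adjusted p = 0.00508), with its HCT116 libraries far apart. VCAN and COL6A2 passed with adjusted p of 0.00400 and 0.0189. GJC1, a gap junction protein, was at 131 CPM untreated and 102 under hypoxia in HCT116, 0.513 and 0.486 in DLD1, and 0.453 and 0.430 in HCT8 (log2 difference 7.94 ± 0.25 SE, adjusted p = 0.000776), and CD109, a surface glycoprotein that binds TGF-beta, was at 170.2 and 404 CPM in HCT116 against 0.361 and 0.851 CPM in DLD1 and 0.772 and 2.11 CPM in HCT8 (adjusted p = 0.00274). CYP24A1 and PCDH7, given above, complete the 12.

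Of the 12 leading lower genes, ordered by the fitted log2 difference, 9 had 0 counts in both HCT116 libraries. The size of a fitted difference at 0 counts depends on the fit. With 3 counts set for HCT116, these 9 lay between -10.61 and -9.06. Those values are bounds, so they cannot be ranked against the fitted values of SELENBP1 (-12.48) or AGR2 (-11.73), which had counts in HCT116. Besides ISX these were CADPS, GPX3, TMEM30B, PLBD1, IGFL2, ZNF717, IL33 and CHIC1. CADPS, which primes dense core vesicles for release, was at 23.02 and 30.8 CPM in DLD1 and 59.5 and 87.4 CPM in HCT8, at least 1564-fold above HCT116 (adjusted p = 0.0101). GPX3, a secreted glutathione peroxidase, was at 9.45 and 11.97 CPM in DLD1 and 50.2 and 93.8 CPM in HCT8, at least 1277-fold above HCT116 (adjusted p = 0.0376). TMEM30B, a subunit of lipid flippases, was at 46.3 and 42.2 CPM in DLD1 and 21.3 and 21.2 CPM in HCT8 (adjusted p = 0.00642). At this depth none of these 3 was detected in HCT116. IL33, an alarmin cytokine, was at 11.8 and 14.9 CPM in DLD1 and 24.9 and 15.98 CPM in HCT8, at least 538-fold above HCT116 (adjusted p = 0.00547). SELENBP1, a methanethiol oxidase of mature colonocytes, had 0 and 1 counts in HCT116 and 44.5 and 72.5 CPM in DLD1 and 86.8 and 95.7 CPM in HCT8, a ratio of 7076-fold [95% counting interval 1269.9 to 279515] (adjusted p = 0.00325). The histone genes HIST1H2BH and HIST1H2AL had at most 2 counts in an HCT116 library and 34.1 to 157 and 30.96 to 62.9 CPM in the others (adjusted p = 0.00887 and 0.00325). Their values are uncertain, since histone genes are near-identical copies, and so is that of ZNF717, which belongs to a large zinc finger family.

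Some calls were switch-like. Off was taken as under 1 CPM in every library of a group, and on as at least 5 CPM in every library of the other. These thresholds were set after seeing the data. Of all genes tested, 234 were on only in HCT116 (1.11%) and 142 only in DLD1 and HCT8 (0.675%). Of these, 222 were called higher (21.7% of the 1024) and 133 lower (18.1% of the 734). The calls came from the same values, so these shares are a description. BNIP3, DKK1, CDKN2A and NTSR1 were in the first set, and AGR2, CDH17, ASCL2 and GSTM3 in the second.

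The called genes were spread over the chromosomes with modest shifts. By annotation, 812 (5.76%) of the 14092 protein-coding genes tested were higher and 578 (4.10%) lower, as were 40 (4.18%) and 39 (4.08%) of the 956 long noncoding RNAs, against 4.87% and 3.49% of all genes. Among genes with a mean log2 CPM above 1, the median log2 difference was -0.06 over all chromosomes with a match. It was 0.18 on chromosome 8, where 9% of the genes tested were called higher, and the shift was in the same direction against DLD1 (0.23) and HCT8 (0.28). Chromosome 17 had medians of 0.17, 0.16 and 0.21 in the same order. Chromosome 13 had -0.32, with -0.05 against DLD1 and -0.47 against HCT8. DNA copy number was not measured here.

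**Figure D5:**
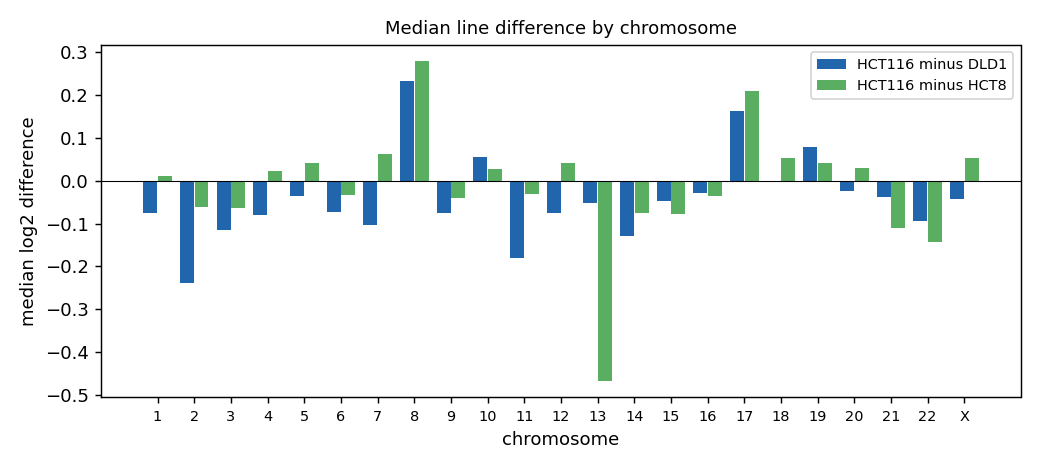
Median log2 difference of genes with a mean log2 CPM above 1 on each chromosome, for HCT116 minus DLD1 and for HCT116 minus HCT8. Chromosomes 8 and 17 lie above 0 in both (0.16 to 0.28), and chromosome 13 lies lowest against HCT8 (-0.47).

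NCM460, labelled a normal intestinal line, and HIEC6 were not part of the fit. Scaled by library total, the NCM460 library had 17.9 CPM of BNIP3, 0.0203 of AGR2, 31.1 of AXIN2, 599.6 of DUSP4 and 575 of NTSR1. The HIEC6 library had 39.7, 0.0529, 1.60, 48.6 and 0.247 CPM of the same genes. NCM460 thus lay on the side of HCT116 for each of these genes, while HIEC6 did so for BNIP3, AGR2 and AXIN2 and lay with DLD1 and HCT8 for NTSR1.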

How the data were processed

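Total RNA depleted of ribosomal RNA was sequenced by the authors. They deposited 1 table of raw read counts per gene (54261 genes, 8 libraries, 0 columns left aside), which was used as deposited. The study's methods name GRCh37.p13, while the submitters' processing notes list GRCh38 and HISAT2 2.0.4; the counter, the strand setting and the handling of reads with several matches are not given in the sources used here. Without strand, overlapping and antisense genes cannot be told apart.

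Line and treatment came from the sample labels. Genes that reached 10 counts in 2 or more of the 6 CRC libraries were fitted in edgeR 4.0.16 (R 4.3.3; TMM, quasi-likelihood test, terms for treatment and for HCT116 against the other lines, Benjamini-Hochberg over 21045 genes, threshold 0.05). Between lines, the hypoxia minus untreated differences in log2 CPM correlated across genes at 0.268, 0.329 and 0.340. These values show how far the treatment differences of the lines were alike. With 1 library per line and treatment, they do not show a pairing of libraries. Alternatives were DESeq2 1.42.0, limma 3.58.1 (limma-trend), other scalings, filters, terms and subsets of libraries. The fitting code was tested on simulated data. Ratios are of pooled TMM-scaled counts with a 95% Clopper-Pearson counting interval; with 0 counts in a group, 3 counts over the group were used. Symbols matched a gene table for 35218 genes, 1543 of them by an older symbol.

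Genes named were BNIP3, 2 to 4 or more members of each of 19 lists, called members first, and the 12 protein-coding genes per direction with the largest log2 difference among genes called, separated in both treatments and above a mean log2 CPM of 1. The members and lists were chosen with earlier results of these data known. Lists are described by counts and medians, and no set test was run. Some members of the lists are not reported here.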

Additional observations from a re-analysis of the deposited data

Results flagged for a closer look

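The NCM460 library lay outside the comparison, and at the genes called in it NCM460 stood with HCT116. In log2 CPM it was nearer to HCT116 than to DLD1 and HCT8 at 93% of the genes called higher in HCT116 (952 of 1024) and at 94.3% of those called lower (692 of 734), against 67.5% of all genes tested. The HIEC6 library was nearer to HCT116 at 38.4% and 52.6%, against 43.7% of all genes tested. The difference was not tested, since each of these lines has 1 library. CYP24A1 was at 149 CPM in NCM460 and 301 in untreated HCT116, ESRP1 at 242 and 221, and MAGEB2 at 171 and 162. The crypt gene ASCL2 and the trefoil gene TFF1, at or near 0 in HCT116, had 0 counts in NCM460.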

How the results depend on the processing

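The comparison rests on 1 line against 2 lines, with 3 residual degrees of freedom. Against the 1758 genes called, DESeq2 called 5022, a filter of 1 count 2991, a filter of 10 counts in all 6 libraries 853, limma-trend 2698, line as a factor of 3 levels 6911, a test against a fold change of 2 969, HCT116 against DLD1 alone 5540 and against HCT8 alone 5094. Upper-quartile scaling called 1778. With no replicate block (the treatment term left out) 2263 genes were called, 1646 of them shared with the main result; NDRG1, BHLHE40, SNAI2 and ERAP1 were among the genes that lost their call there. The untreated libraries alone, the hypoxia libraries alone, and the libraries other than the hypoxia ones of HCT116 and DLD1 (an alternative chosen after seeing the data) gave 0 calls, with 2312, 2898 and 2288 genes at an unadjusted p under 0.05. Leaving out 1 library gave 0 to 1124 calls: 0 without either HCT116 library, where 4131 and 2554 genes had an unadjusted p under 0.05. A lone HCT116 library was assumed to vary like the others. The causes were not tested.

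BNIP3 kept its direction in every alternative that gave a value. Its log2 difference was 13 untreated (adjusted p = 0.176), 12.11 under hypoxia (adjusted p = 0.0519), 12.97 without the hypoxia libraries of HCT116 and DLD1 (adjusted p = 0.196), and 11.67 to 13.36 with 1 library left out. The filter of 10 counts in all 6 libraries leaves BNIP3 out. The interaction of line and treatment, called for 0 genes, was called for 7 by DESeq2 and for 0 by limma-trend, with 656 at an unadjusted p under 0.05. Separation in both treatments held for 10950 genes, and for 10966 under upper-quartile scaling. The medians that changed sign were those of the TGF-beta list (-0.068) and the cell cycle inhibitors (-0.056) without the hypoxia libraries of HCT116 and DLD1, and of the HOX list (0.0096) with line as a factor. Of the 129 genes followed besides BNIP3, those called kept their direction in each alternative, and over all alternatives 697 results lost the threshold and 44 passed it newly. The 4 genes whose sign changed were not called: BNIP3L (0.12 with no replicate block, 0.19 in the hypoxia libraries, 0.10 against DLD1 alone, and -0.38 to 0.19 with 1 library left out), PMS2 (0.035 in the untreated libraries, 0.021 without the hypoxia libraries of HCT116 and DLD1, and -1.09 to 0.035 with 1 library left out), PHLDA3 (-0.31 against HCT8 alone) and HOXA13 (0.78 by limma-trend, 0.79 with line as a factor, 5.04 against HCT8 alone, and -2.86 to 1.27 with 1 library left out).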

Other observations

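Some genes that belong to no list above also switched between the lines, and they are given here after their values were seen. Among genes on only in HCT116, LIFR, the leukemia inhibitory factor receptor and a relative of OSMR, was at 43.2 CPM untreated and 86.6 under hypoxia in HCT116, 0.133 and 0.313 in DLD1, and 0.0671 and 0.0587 in HCT8 (log2 difference 8.78 ± 0.67 SE, adjusted p = 0.00348). NR3C1, the glucocorticoid receptor, was at 23.9 CPM untreated and 89.03 under hypoxia in HCT116, 0.0760 and 0.174 in DLD1, and 0 and 0.117 in HCT8 (log2 difference 9.24 ± 0.78 SE, adjusted p = 0.00400). STC2, a secreted glycoprotein induced by stress, was at 116 and 395 CPM in HCT116 and at most 0.191 CPM elsewhere (log2 difference 10.51 ± 0.44 SE, adjusted p = 0.00123). WNT16, a Wnt ligand, was at 72.8 and 231 CPM in HCT116 and at most 0.174 CPM elsewhere (log2 difference 10.51 ± 0.99 SE, adjusted p = 0.00522). For these 4 genes the hypoxia library of HCT116 was the higher of its pair.

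In the other direction, H19, an imprinted long noncoding RNA, was at 0.116 CPM untreated and 0.351 under hypoxia in HCT116, 17.96 and 78.02 in DLD1, and 56.9 and 326 in HCT8 (log2 difference -8.80 ± 1.14 SE, adjusted p = 0.0120). H19 was higher in the hypoxia library of each line. HIST1H1D, a linker histone gene whose copies are alike, had 3 and 4 counts in HCT116 and 199 and 213 CPM in DLD1 and 215 and 99.2 CPM in HCT8 (adjusted p = 0.00252).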
